A study of Mus musculus with 6 samples.

Results

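The genes described here encode the proteins of the mitochondrial ribosome. They were all protein-coding genes whose symbol begins with Mrpl or Mrps followed by a digit, with a mean of at least 1 FPKM (fragments per kilobase of transcript and per 1000000 mapped fragments) over the 6 libraries. The rule found 78 genes among the 55335 identifiers of the table, of which 11395 reached that mean and entered the test. No such protein-coding gene was left out by the minimum, and 5 processed pseudogenes with the same prefixes were not counted. Of the 78, 51 belong to the large subunit, 26 to the small subunit, and Mrps36 carries the name but is now assigned to the 2-oxoglutarate dehydrogenase complex.

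RNA-seq was done on primary microglia of C57BL/6 mice, taken from neonatal brains, detached from mixed cultures on day 14 and labelled WT in genotype in both groups. They had been co-cultured for 24 h with neutrophils that were isolated magnetically from spinal cord lesions at 3 dpi. In the WT group the neutrophils came from Cd177 WT mice (n = 3 libraries) and in the KO group from Cd177 KO mice (n = 3), and the microglia were then collected by flow sorting as Ly6G-negative cells. The labels do not say that the libraries of a group came from separate cultures, so p-values measure the spread between these libraries, which may be technical.

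The mitochondrial ribosome translates the few proteins that mitochondrial DNA encodes, all of them membrane subunits of the respiratory chain complexes and of ATP synthase. Its rRNAs are transcribed inside the organelle, whereas every protein of it is encoded in the nucleus, made in the cytosol and imported. Some of these proteins have counterparts in bacterial ribosomes and others were gained in mitochondria, and those gained sit mostly on the outer surface of the particle.

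The 6 libraries were alike in scale. The FPKM values of a library summed to 314100 to 315600 in the WT group and 323600 to 326900 in the KO group, and the smallest steps between low values gave an estimated depth of 15.7 to 19.4 in units of 1000000 fragments. Cd177, the gene removed from the neutrophils, was between 0.113 and 0.477 FPKM in the WT group and between 0.0217 and 0.109 FPKM in the KO group, too low in these microglia to check the genotype of the neutrophils. The share of that sum from mitochondrial DNA was 11.1% to 11.3% with WT and 14.3% to 14.6% with KO neutrophils. Of 15 microglia and macrophage markers, 10 reached 1 FPKM, with a summed level of 1646 to 1714 FPKM in the WT group and 1840 to 1892 FPKM in the KO group. Of these 10, 5 were called higher with KO neutrophils, among them Cd68 (363 to 377 FPKM against 481 to 505 FPKM), and 2 lower, Fcer1g (184 to 195 FPKM against 151 to 164 FPKM) and Cx3cr1 (2.41 to 2.98 FPKM against 0.956 to 1.43 FPKM), while P2ry12, Tmem119 and Aif1 were under 1 FPKM and C1qa and Sall1 were listed at 0. Of all genes tested, 24.5% were called higher and 18.8% lower. Of 15 neutrophil markers, only Mmp9 reached 1 FPKM, Ly6g, Elane, Mpo, Ltf, Retnlg and S100a9 were listed at 0, and the sum was 9.25 to 9.38 FPKM against 1.76 to 2.40 FPKM, most of it in the WT group from Mmp9, which is not restricted to neutrophils (7.08 to 7.21 FPKM against 0.770 to 1.13 FPKM). Among the rest, all under 1 FPKM, Csf3r (0.546 to 0.744 FPKM against 0.223 to 0.399 FPKM), S100a8, Camp and Cd177 were lower in every KO library than in any WT library. Mmp8, Cxcr2, Padi4 and Ngp overlapped between the groups. None of 14 astrocyte and oligodendrocyte markers reached 1 FPKM, with sums of 0.390 to 0.477 FPKM in the WT group and 0.359 to 0.540 FPKM in the KO group, and 7 of them were listed at 0. The part of these marker differences in the results that follow was not tested. In bulk RNA, fewer cells of a type and less RNA per cell cannot be told apart.

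All 78 genes were expressed at low to middling levels. Their means over the 6 libraries ran from 2.98 to 53.3 FPKM with a median of 13.1 FPKM, and 51 genes had at least 10 FPKM. The median over all genes tested was 7.91 FPKM. The genes lie on 17 chromosomes, and 0 lie on the X chromosome. Libraries of a group lay close together, with a median coefficient of variation of 5.22% per gene, against 5.56% that counting alone would give at the estimated depth. The highest were Mrpl58 with 23.6%, Mrps21 with 20.7%, Mrps25 with 19.9% and Mrps34 with 18.9%.

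Most of the family differed little between microglia co-cultured with Cd177 KO and with Cd177 WT neutrophils, and a few members differed strongly in either direction. With KO neutrophils 27 of the 78 genes were higher and 7 were lower, and 44 were not called (limma on log2(FPKM + 1), adjusted p under 0.05). The background was 24.5% of all genes tested called higher, 18.8% called lower and 43.3% called in either direction. Of the members, 34.6% were called higher, 8.97% lower and 43.6% in either direction, so that the share called at all was that of the background. The median difference of the members was 0.095 on the log2(FPKM + 1) scale, KO minus WT, against 0.024 over all genes tested, and 49 members had a positive and 29 a negative sign. All KO libraries lay above all WT libraries for 33 members and below them for 11, where 31.3% and 24.6% of all genes tested did so. Among the 34 called genes, 28 differed by less than 1.5-fold on that scale. When each library was scaled to a common sum (TPM scale), 20 members were called higher and 12 lower. The share of higher calls was 62.5% there, against 79.4% before, and that over all genes 45.0%, against 56.6%. This scaling also raised the values, so that the added 1 weighed less, and these changes were not separated. The median difference on that scale was 0.053 for the members and -0.021 for all genes tested.

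**Figure D1:**
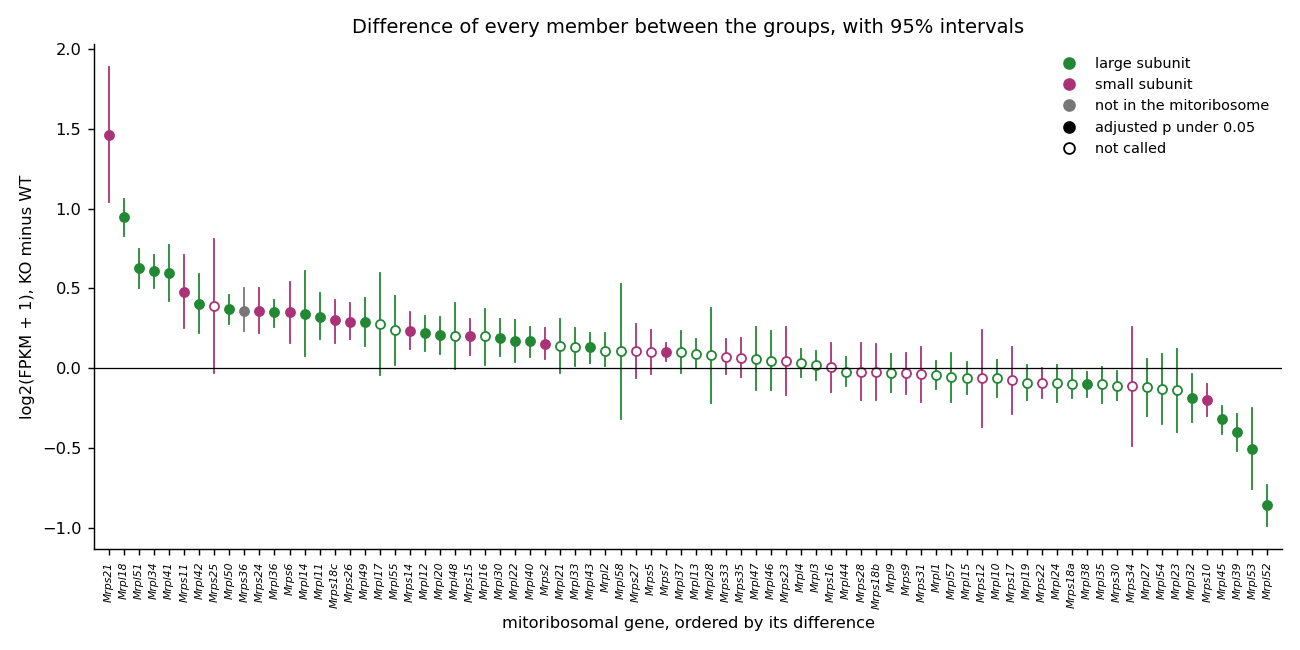
Difference between the KO and WT groups for each of the 78 genes on the log2(FPKM + 1) scale (y axis), ordered from the highest to the lowest (x axis); points are fitted differences, lines 95% intervals, colours mark the subunit and filled points the 34 called genes. Most points lie close to 0, with Mrps21 (1.46) and Mrpl18 (0.95) at one end and Mrpl53 (-0.51) and Mrpl52 (-0.86) at the other.

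The promoters of the 3 genes with the largest rises, Mrps21, Mrpl18 and Mrpl51, and of the 2 with the largest falls, Mrpl52 and Mrpl53, are shown because these genes stand at the ends of the family. Each is the RefSeq window (GRCm38.p6) from 250 bases before to 50 bases after the RefSeq start of the gene, given 5′ to 3′ on the strand of the gene. In the GENCODE annotation, used for the gene positions below, Mrpl18 and Mrpl51 start farther upstream. Their windows lie wholly inside the annotated gene there, so the capitals in them stand in annotated transcribed regions. Capitals mark matches to 4 motifs, searched on both strands, that are known from promoters of nuclear genes for mitochondrial proteins: GCATGCGC (bound by NRF1), CCGGAAGT (ETS factors such as GABPA), AAGATGGCG (YY1) and CACGTG (the E-box of MYC and USF proteins). The windows are Mrps21 at chr3:95871465-95871764 (minus strand), Mrpl18 at chr17:12916042-12916341 (minus strand), Mrpl51 at chr6:125191950-125192249 (plus strand), Mrpl52 at chr14:54426659-54426958 (plus strand) and Mrpl53 at chr6:83108858-83109157 (plus strand).
Mrps21: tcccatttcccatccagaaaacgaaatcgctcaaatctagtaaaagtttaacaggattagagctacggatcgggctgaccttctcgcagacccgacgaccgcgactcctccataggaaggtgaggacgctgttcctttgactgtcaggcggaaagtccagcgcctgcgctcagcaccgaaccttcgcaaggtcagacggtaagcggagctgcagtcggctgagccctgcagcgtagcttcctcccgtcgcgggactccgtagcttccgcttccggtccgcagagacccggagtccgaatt
Mrpl18: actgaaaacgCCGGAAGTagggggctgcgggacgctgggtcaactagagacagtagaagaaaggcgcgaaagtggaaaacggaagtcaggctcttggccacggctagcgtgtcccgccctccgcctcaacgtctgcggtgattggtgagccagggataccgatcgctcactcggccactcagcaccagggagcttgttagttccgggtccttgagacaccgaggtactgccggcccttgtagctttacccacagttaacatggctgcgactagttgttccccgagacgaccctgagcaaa
Mrpl51: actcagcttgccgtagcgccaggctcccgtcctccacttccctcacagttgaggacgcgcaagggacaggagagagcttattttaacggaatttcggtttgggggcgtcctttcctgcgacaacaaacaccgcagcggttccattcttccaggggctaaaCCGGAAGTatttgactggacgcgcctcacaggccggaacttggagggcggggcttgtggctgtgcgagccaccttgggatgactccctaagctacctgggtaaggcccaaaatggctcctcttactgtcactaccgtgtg
Mrpl52: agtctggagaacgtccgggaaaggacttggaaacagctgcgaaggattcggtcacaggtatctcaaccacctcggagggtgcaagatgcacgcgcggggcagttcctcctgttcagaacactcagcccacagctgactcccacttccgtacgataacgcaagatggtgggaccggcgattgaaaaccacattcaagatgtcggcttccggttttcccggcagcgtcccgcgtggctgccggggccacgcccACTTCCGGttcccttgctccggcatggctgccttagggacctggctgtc
Mrpl53: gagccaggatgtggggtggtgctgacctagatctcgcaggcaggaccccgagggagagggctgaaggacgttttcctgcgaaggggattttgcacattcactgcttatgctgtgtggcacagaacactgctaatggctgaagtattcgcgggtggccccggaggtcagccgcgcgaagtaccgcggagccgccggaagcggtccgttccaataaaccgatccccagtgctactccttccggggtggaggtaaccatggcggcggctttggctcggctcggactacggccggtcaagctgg

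An ETS match stood in the windows of Mrpl18 and Mrpl51, which rose, and in that of Mrpl52, which fell, while the windows of Mrps21, which rose, and Mrpl53, which fell, held no match to any of the 4 motifs. Windows were found for 69 of the 78 members (75 windows in all). The ETS motif was in 16.0% of the member windows, against 9.37% of the windows of all genes tested and 3.89% of all 32851 windows. The NRF1 motif was in 10.7% of them against 5.85% and 2.71%, and the YY1 motif in 10.7% against 3.49% and 1.40%. The E-box was in 9.33% of the member windows and in 10.48% and 7.15% of the others. At least 1 of the 4 motifs was present in 11 of the 27 members called higher, in 3 of the 6 called lower that had a window, and in 14 of the 36 not called. A match is a description of the letters and not a site.

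The strongest rise was that of Mrps21, a small subunit protein of bacterial descent (bS21m; chromosome 3, 95862634 to 95871519, GRCm38). Its level was 15.5, 17.1 and 26.1 FPKM in the 3 WT libraries and 55.9, 52.9 and 54.3 FPKM in the 3 KO libraries. The groups did not overlap, and WT replicate 3 stood above the other WT libraries. The WT mean was 19.6 ± 5.7 and the KO mean 54.4 ± 1.5 FPKM (SD, n = 3 each). The log2 difference was 1.46 (SE 0.18, 95% interval 1.04 to 1.89, limma adjusted p = 0.00102), and it was the one member over 2-fold. Without WT replicate 3 the log2 difference was 1.68. Gm6181, a processed pseudogene that matches Mrps21 at 95.5% over 132 bases, had 1.36, 1.03 and 0.867 FPKM in the WT group and 3.52, 2.42 and 2.32 FPKM in the KO group, and reads could have been shared between the 2 loci.

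Mrpl18 (uL18m; chromosome 17, 12911349 to 12916345), whose bacterial counterpart binds the 5S rRNA, had 14.1, 15.2 and 13.6 FPKM in the WT group and 28.3, 27.8 and 29.2 FPKM in the KO group. The KO mean of 28.4 ± 0.726 FPKM was 1.99 times the WT mean of 14.3 ± 0.814 FPKM (SD, n = 3 each), with tight groups, and the log2 difference was 0.95 (SE 0.046, limma adjusted p = 1.82e-05). Tcp1, a chaperonin subunit gene on the other strand whose transcribed region overlaps the start of Mrpl18 by 644 bases, differed by -0.034 (limma adjusted p = 0.266).

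The other 3 of the 5 largest rises were in the large subunit. Mrpl51 (mL51, found only in mitochondrial ribosomes; chromosome 6, 125191801 to 125196269) had 5.13, 5.28 and 5.64 FPKM in the WT group and 9.26, 8.75 and 8.44 FPKM in the KO group, a log2 difference of 0.63 (SE 0.052, limma adjusted p = 0.000199). Mrpl34 (bL34m; chromosome 8, 71464959 to 71465747) was among the most abundant members, with 36.3, 37.1 and 34.0 FPKM in the WT group and 55.3, 57.1 and 52.7 FPKM in the KO group, a log2 difference of 0.61 (SE 0.044, limma adjusted p = 0.000112). In each of these genes the lowest KO library lay above the highest WT library. Mrpl41 (mL41, another mitochondria-specific protein; chromosome 2, 24974117 to 24975098) had 12.3, 14.3 and 13.0 FPKM in the WT group and 20.7, 18.8 and 21.6 FPKM in the KO group, a log2 difference of 0.60 (SE 0.071, limma adjusted p = 0.000957).

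**Figure D2:**
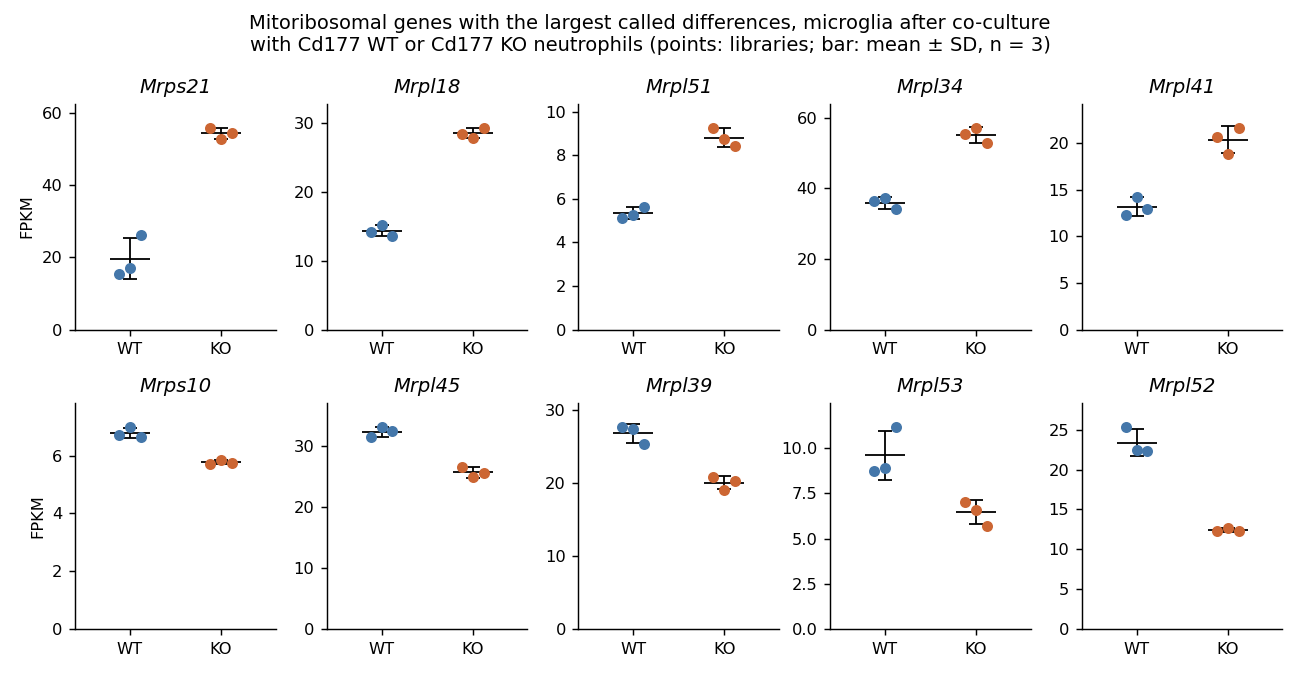
FPKM (y axis, from 0, scaled for each gene) in the 3 libraries with Cd177 WT neutrophils and the 3 with Cd177 KO neutrophils, for the 5 members with the largest called rises (top) and the 5 with the largest called falls (bottom); points are libraries, bars the mean ± SD. The groups do not overlap for any of the 10 genes, and WT replicate 3 of Mrps21 (26.1 FPKM) and of Mrpl53 (11.2 FPKM) lies apart from the other WT libraries.

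The falls were led by Mrpl52 (mL52; chromosome 14, 54426909 to 54429756), a mitochondria-specific protein of the large subunit. It had 25.3, 22.5 and 22.3 FPKM in the WT group and 12.3, 12.7 and 12.2 FPKM in the KO group, so that the KO level was 0.531 of the WT level and the log2 difference -0.86 (SE 0.054, limma adjusted p = 5.47e-05). Mrpl53 (mL53; chromosome 6, 83109040 to 83109939) had 8.75, 8.89 and 11.2 FPKM in the WT group and 7.02, 6.61 and 5.71 FPKM in the KO group, a log2 difference of -0.51 (SE 0.11, limma adjusted p = 0.0105), which was -0.40 without WT replicate 3. All of its transcript is also part of the annotated gene Gm42688, which had 4.75 FPKM on average, so its value is uncertain.

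Mrpl39 and Mrpl45 are 2 more mitochondria-specific proteins of the large subunit that fell. Mrpl39 (mL39; chromosome 16, 84717576 to 84735742), which resembles part of a threonyl-tRNA synthetase, had 27.6, 27.4 and 25.3 FPKM in the WT group and 20.8, 19.1 and 20.2 FPKM in the KO group, a log2 difference of -0.40 (SE 0.048, limma adjusted p = 0.000979). Mrpl45 (mL45; chromosome 11, 97315716 to 97329920), which ties the ribosome to the inner membrane next to the insertion machinery, had 31.5, 33.1 and 32.6 FPKM in the WT group and 26.7, 24.9 and 25.6 FPKM in the KO group, a log2 difference of -0.32 (SE 0.035, limma adjusted p = 0.000648). Both are among the 16 most abundant members, and neither overlapped between groups. Mrps10 (uS10m; chromosome 17, 47368887 to 47381417) was the one small subunit gene called lower, with 6.70, 6.98 and 6.64 FPKM in the WT group and 5.70, 5.85 and 5.74 FPKM in the KO group, a log2 difference of -0.20 (SE 0.040, limma adjusted p = 0.00824).

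Seen by subunit, 16 of 51 large subunit genes were higher (31.4%) and 6 lower (11.8%) with KO neutrophils, with a median log2 difference of 0.091, and 10 of 26 small subunit genes were higher (38.5%) and 1 lower (3.85%), with a median of 0.086. Of all genes tested 24.5% were higher and 18.8% lower, with a median of 0.024. In either direction 43.1% of the large and 42.3% of the small subunit genes were called, which is close to the 43.3% of all genes. On the TPM scale the counts were 11 higher and 10 lower for the large and 8 higher and 2 lower for the small subunit. Of all 11395 genes tested, 2175 were higher and 2660 lower on that scale. Split by whether the protein stands at the place of a bacterial ribosomal protein, 18 of the 46 proteins with a bacterial counterpart were higher (39.1%) and 2 lower (4.35%), with a median of 0.11, and 8 of the 31 mitochondria-specific proteins were higher (25.8%) and 5 lower (16.1%), with a median of 0.046. The shares of the mitochondria-specific proteins were near those of all genes, and in either direction 43.5% and 41.9% of these groups were called. The 2 with a bacterial counterpart that fell were Mrps10 and, by -0.19, Mrpl32, which was called in 7 of the 18 fits and not without WT replicate 2 (limma adjusted p = 0.119), WT replicate 3 (0.132), KO replicate 1 (0.114) or KO replicate 3 (0.132). Mrps18a and Mrps18b, which derive from a bacterial protein but stand at other places in the ribosome, are counted as mitochondria-specific. The 5 mitochondria-specific falls were all in the large subunit, namely Mrpl52, Mrpl53, Mrpl39, Mrpl45 and, by -0.10, Mrpl38 (Mrpl32, Mrpl38 and Mrps26 are named after their values were seen). There 7 of 21 mitochondria-specific genes were higher. In the small subunit 9 of 16 genes with a bacterial counterpart were higher, and 1 of 10 mitochondria-specific genes, Mrps26 (0.29), was higher and 0 were lower. Mrpl38 was called in 10 of the 18 fits, and without 1 library it was called only when that was WT replicate 2 (limma adjusted p of 0.0507 to 0.111 without WT replicate 1, WT replicate 3, KO replicate 1, KO replicate 2 or KO replicate 3). No test was made between these groups.

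The summed level of the large subunit genes was 863, 888 and 866 FPKM in the WT libraries and 932, 930 and 943 FPKM in the KO libraries. That of the small subunit genes was 337, 344 and 347 FPKM against 403, 400.0 and 413 FPKM. Both sums were higher in every KO library than in any WT library. The ratio of the large to the small sum was 2.56, 2.58 and 2.49 in the WT group and 2.31, 2.33 and 2.28 in the KO group. Without Mrps21 the ratio was 2.68, 2.72 and 2.70 in the WT group and 2.68, 2.68 and 2.63 in the KO group, and the groups overlapped. All members together made up 0.385% to 0.394% of the FPKM sum in the WT group and 0.413% to 0.419% in the KO group.

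**Figure D3:**
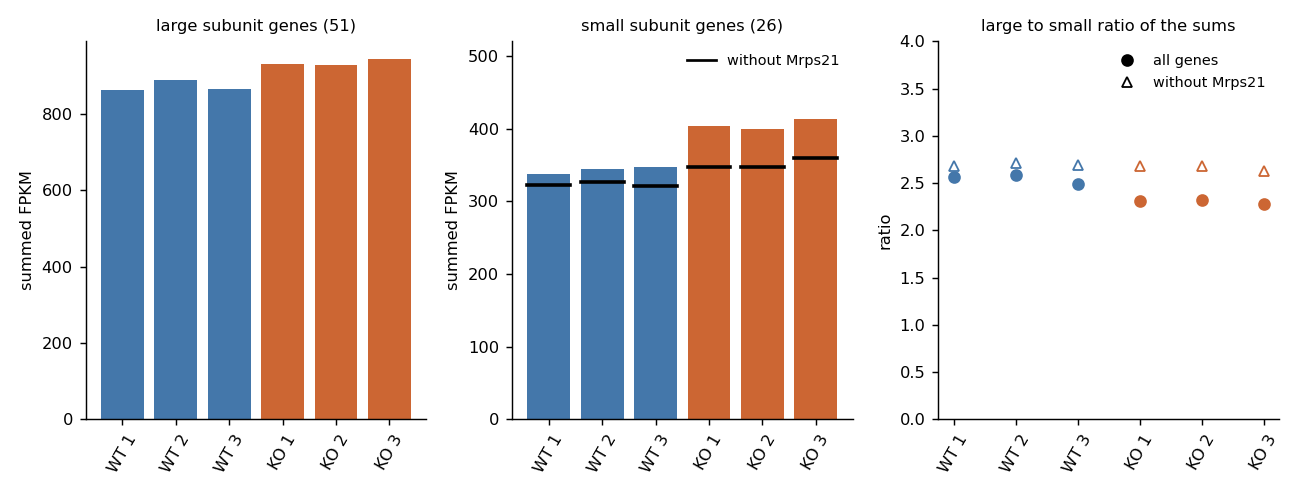
Summed FPKM of the 51 large subunit genes (left) and the 26 small subunit genes (middle, with black lines for the sum without Mrps21) in each library, and the ratio of the sums (right; circles with all genes, triangles without Mrps21). The ratio is 2.49 to 2.58 in the WT group and 2.28 to 2.33 in the KO group, and without Mrps21 it is 2.68 to 2.72 and 2.63 to 2.68.

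The most abundant member was Mrpl12 (bL12m; chromosome 11, 120484613 to 120489065), the protein of the flexible stalk to which translation factors are drawn. It had 47.9, 50.3 and 49.1 FPKM in the WT group and 55.2, 55.8 and 61.3 FPKM in the KO group, a small rise of 0.22 on the log2 scale (SE 0.046, limma adjusted p = 0.00965). Mrpl10 (uL10m), which anchors the stalk, was not called, with 22.2, 24.4 and 22.1 FPKM against 21.4, 21.6 and 22.6 FPKM (log2 difference -0.063, 95% interval -0.18 to 0.052). Mrpl9 (bL9m), the next most abundant after Mrpl34, had 41.7, 43.9 and 47.5 FPKM in the WT group and 43.9, 44.0 and 42.3 FPKM in the KO group and was not called either (-0.030, interval -0.15 to 0.090). The stalk and its base thus did not show the same call, although the difference between them was not tested.

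After Mrps21, the most abundant small subunit genes were Mrps2 (uS2m) and Mrps7 (uS7m), both with counterparts in all ribosomes. Mrps2 had 33.0, 32.4 and 31.5 FPKM in the WT group and 37.1, 36.8 and 34.2 FPKM in the KO group (log2 difference 0.15, SE 0.039, limma adjusted p = 0.0208). Mrps7 had 26.6, 27.1 and 27.0 FPKM against 28.9, 29.0 and 29.0 FPKM (0.10, SE 0.024, limma adjusted p = 0.0140). Both rises were under 1.2-fold. The call of Mrps2 was lost without WT replicate 2 (limma adjusted p = 0.0532), WT replicate 3 (0.0635), KO replicate 1 (0.0632) or KO replicate 2 (0.0661), and both calls were lost on the TPM scale (0.082 for Mrps2 and 0.116 for Mrps7). Mrps12 (uS12m), a protein of the decoding centre, had 14.3, 11.9 and 13.7 FPKM in the WT group and 10.4, 13.4 and 14.7 FPKM in the KO group, so the groups overlapped (-0.062, interval -0.37 to 0.24).

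The bacterial protein bS18 has 3 descendants in mitochondria, of which 1 was called higher and the other two were not called. The difference between them was not tested. Mrps18c, the one that takes the place of bS18, had 15.9, 14.9 and 14.2 FPKM in the WT group and 17.7, 18.6 and 19.7 FPKM in the KO group (log2 difference 0.30, SE 0.056, limma adjusted p = 0.00647). Mrps18b, elsewhere in the small subunit, had 25.2, 28.2 and 27.0 FPKM against 23.7, 27.9 and 27.6 FPKM (-0.023, interval -0.20 to 0.15). Mrps18a, which despite its name is part of the large subunit, had 19.1, 19.0 and 17.9 FPKM against 16.9, 17.5 and 17.6 FPKM (-0.10, limma adjusted p = 0.0673). All KO libraries of Mrps18a lay below its WT libraries, and the fall was called on the TPM scale (-0.15, limma adjusted p = 0.0199), after the length and GC correction (-0.13, 0.0225) and without WT replicate 3 (-0.13, 0.0372). Mrps30, likewise a large subunit protein by position, had 10.52, 10.2 and 10.8 FPKM against 9.38, 9.88 and 9.76 FPKM and also did not overlap (-0.11, limma adjusted p = 0.0620), with a call on the TPM scale alone (-0.17, 0.0231).

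Of 2 large subunit proteins related to enzymes, Mrpl44, which has the fold of an RNase III, had 21.5, 21.9 and 22.8 FPKM in the WT group and 21.3, 22.7 and 21.3 FPKM in the KO group (-0.021, interval -0.11 to 0.072). Mrpl58 (ICT1), a peptidyl-tRNA hydrolase that is built into the ribosome, had 3.08, 4.88 and 3.05 FPKM against 4.37, 4.41 and 3.20 FPKM (0.11, interval -0.32 to 0.53). Its difference was 0.019 without WT replicate 3 and 0.287 without WT replicate 2, the lowest and highest values with 1 library left out, and it was called in neither case. For both genes the groups overlapped, and for Mrpl58 a difference of the size seen in most called members could not have been resolved. Mrps34 (mS34) had 7.37, 7.68 and 11.4 FPKM in the WT group and 8.42, 7.23 and 8.23 FPKM in the KO group (-0.11, interval -0.49 to 0.26). Part of its transcript overlaps Mapk8ip3 on the other strand, and it also shares exon bases with Nme3 on the same strand. The lowest members were Mrpl23 (uL23m), with 3.31, 3.33 and 2.83 FPKM against 2.80, 2.30 and 3.28 FPKM (-0.14, interval -0.40 to 0.12), and Mrps35 (mS35), with 3.36, 3.60 and 3.64 FPKM against 3.72, 3.87 and 3.64 FPKM (0.066, interval -0.058 to 0.19). The processed pseudogene Mrpl23-ps1 is identical to Mrpl23 over 507 bases and was listed at 9.24 FPKM on average, above Mrpl23 itself, so the level of Mrpl23 depends on how shared reads were assigned.

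Mrps36 (KGD4), which recruits a subunit of the 2-oxoglutarate dehydrogenase complex and is no part of the ribosome, had 9.45, 10.2 and 9.09 FPKM in the WT group and 13.2, 12.0 and 12.6 FPKM in the KO group. It rose without overlap, by 0.36 (SE 0.055, limma adjusted p = 0.00253). Its processed pseudogene Gm19253, which matches it at 92.2% over 307 bases, was listed at 11.3 FPKM on average and had 9.21, 9.75 and 9.46 FPKM in the WT group and 13.8, 12.8 and 12.8 FPKM in the KO group. The 2 loci therefore had nearly the same levels and the same direction, and reads could have been shared between them. In all, 9 members have a near-identical copy at another locus of the annotation. The criterion was at least 90% identity over at least 50% of the shortest protein-coding transcript of the member, which can be a small part of its longest one. For Mrps21 the match to Gm6181 covered 132 of 244 bases, where its longest transcript has 488. A further 3 members (Mrpl53, Mrps25 and Mrps34) match that much of a gene that overlaps them, for Mrps25 and Mrps34 on the other strand.

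Many of these genes share a start region with a neighbour on the other strand. A head-to-head partner that starts within 1000 bases was found for 33 members, and 28 of the partners were expressed enough to be tested. Among the 14 called members with such a partner, the partner was called in the same direction for 4, in the opposite direction for 3 and not at all for 7. Thus 7 of these 14 partners were called, where 43.3% of all genes tested were. The pairs named here were chosen after their values were seen. Mrpl41 and Pnpla7, a lysophospholipase gene, rose by 0.60 and 0.65 (limma adjusted p = 3.43e-05 for Pnpla7), and Mrpl51 and Ncapd2, a condensin subunit gene, by 0.63 and 0.46 (0.000582 for Ncapd2). Mrpl36 and Ndufs6, a complex I subunit gene, rose by 0.35 and 0.25, and Mrpl40 and Hira, a histone chaperone gene, by 0.17 and 0.19. By contrast, Mrpl49 rose by 0.29 where Fau, which encodes a ubiquitin-like protein fused to a cytosolic ribosomal protein, fell by 0.17, and Mrpl43 rose by 0.13 where Twnk, the mitochondrial DNA helicase gene, fell by 0.13. In the third such pair Mrpl32 fell by 0.19 and Psma2, a proteasome subunit gene, rose by 0.19. The calls of Mrpl32 and Mrpl43 in these opposite pairs were made in 7 and 8 of the 18 fits, and that of Mrpl43 was lost without any WT library, KO replicate 1 or KO replicate 2 (limma adjusted p of 0.0535 to 0.104).

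One such pair consists of 2 mitoribosomal genes, Mrps11 (chromosome 7, 78783119 to 78792989) and Mrpl46 (chromosome 7, 78775236 to 78783531), whose transcribed regions overlap by 412 bases at their starts. Mrps11 had 5.12, 5.62 and 4.39 FPKM in the WT group and 8.26, 7.20 and 6.84 FPKM in the KO group and rose by 0.48 (SE 0.096, limma adjusted p = 0.00833). Mrpl46 had 11.5, 11.8 and 9.65 FPKM against 11.0, 11.1 and 11.8 FPKM and overlapped between the groups (0.046, interval -0.14 to 0.23). Over the 28 tested pairs Pearson's r between the differences of member and partner was 0.082 and Spearman's rho 0.016, a description over pairs that share their libraries, with the pair of Mrps11 and Mrpl46 entering from both sides. In the annotation 33 members share exon bases with another gene, 28 of them with a gene on the other strand, and the strand setting of the counting is not given in the sources used here.

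**Figure D4:**
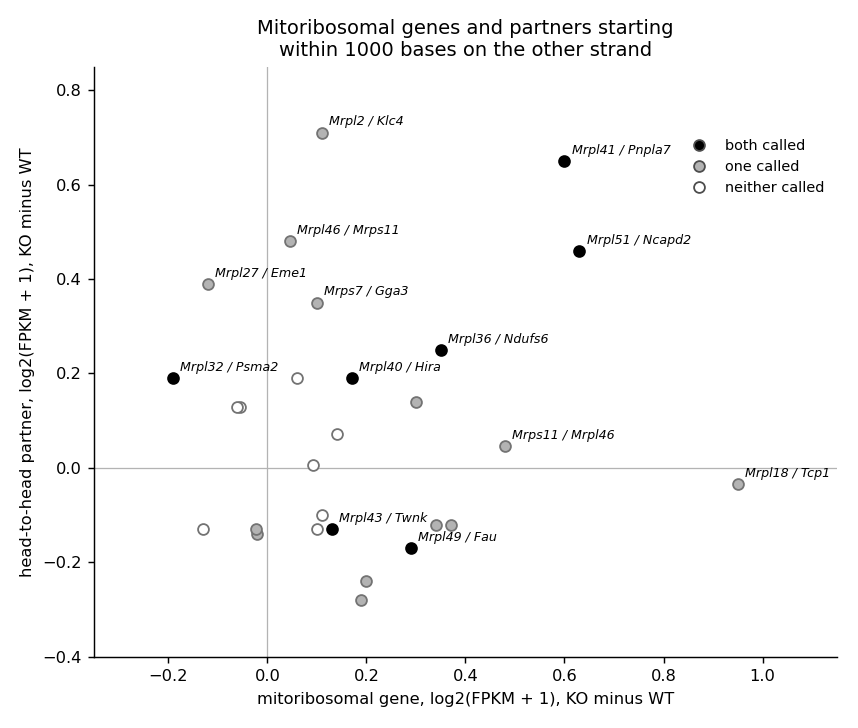
Difference on the log2(FPKM + 1) scale, KO minus WT, of 28 mitoribosomal genes (x axis) and of their head-to-head partner (y axis); black points are pairs with both genes called, grey points pairs with one called and open points pairs with neither. The points do not follow the diagonal (Pearson's r 0.082), and Mrpl18 at 0.95 faces Tcp1 at -0.034.

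Other parts of mitochondrial gene expression were examined through lists of genes with known roles. Of the 5 mitoribosomal proteins with other kinds of names, Ptcd3 (mS39), which guides mRNA to the small subunit, was the one called, with 11.9, 12.2 and 11.8 FPKM in the WT group and 12.7, 14.0 and 13.5 FPKM in the KO group (0.15, SE 0.043, limma adjusted p = 0.0319). That call held without KO replicate 1 alone among the libraries left out, with adjusted p of 0.0529 to 0.0884 without any of the others, and was also lost on the TPM scale (0.108). Dap3 (mS29), a GTP-binding protein first described in apoptosis, had 16.5, 16.4 and 16.3 FPKM against 16.5, 15.0 and 15.5 FPKM (-0.063). Chchd1, Aurkaip1 and Gadd45gip1 differed by -0.019, 0.059 and 0.00036 and were not called either.

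Among 15 mitochondrial translation factors, 3 were higher (20%, against 24.5% of all genes tested) and 0 lower (against 18.8%). Lrpprc, which stabilises mitochondrial mRNAs, rose from 21.8 ± 0.462 to 26.9 ± 0.230 FPKM (0.29, limma adjusted p = 0.000364), and Guf1, an elongation factor of the LepA type, from 3.79 ± 0.309 to 5.88 ± 0.155 FPKM (0.53, limma adjusted p = 0.000840; SD, n = 3 each). Gfm1, the translocase, was called at 0.15 (limma adjusted p = 0.0276), but not without WT replicate 2 (0.0784), WT replicate 3 (0.0795), KO replicate 1 (0.0769) or KO replicate 3 (0.0834), nor on the TPM scale (0.082). Tufm, the factor that delivers aminoacyl-tRNA, had 34.7, 33.2 and 31.0 FPKM against 40.7, 34.7 and 33.4 FPKM and was not called (0.13, limma adjusted p = 0.229). With 1 library left out its difference was 0.048 (without KO replicate 1) to 0.187 (without KO replicate 3), and it was not called in any of those fits.

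Of 26 assembly factors, 25 were tested, and 7 were higher (28%, near the 24.5% of all genes tested) and 2 lower (8%, against 18.8%). Ngrn, needed for the large subunit rRNA, fell from 18.5 ± 0.812 to 13.1 ± 0.808 FPKM (-0.47, limma adjusted p = 0.000794), and Mterf3, a repressor of mitochondrial transcription named after its values were seen, was lower by -0.25 (0.0213). Fastkd2 and Rbfa, which act on the large and the small subunit rRNA, rose by 0.24 (limma adjusted p = 0.00253) and 0.29 (0.00561; SD, n = 3 each). The count of higher assembly factors was 4 without KO replicate 1 or KO replicate 3, and that of lower ones 1 without WT replicate 2, KO replicate 2 or KO replicate 3. Of 20 genes that charge mitochondrial tRNAs (17 synthetases and Qrsl1, Gatb and Gatc, the subunits of the amidotransferase, none of which was called) 4 were higher (20%) and 1 was lower (5%). The smallest p-values were those of Iars2 (0.25, limma adjusted p = 0.00468), Hars2 (0.19, 0.00929) and Cars2 (0.33, 0.0232, and 0.50 with a pseudocount of 0.1). The count of higher genes was 2 without WT replicate 1, KO replicate 2 or KO replicate 3. Cars2 itself was not called without WT replicate 1 (0.0594), WT replicate 2 (0.0605), KO replicate 2 (0.0585) or KO replicate 3 (0.0724). The remaining calls, named after their values were seen, were a rise of Lars2 (0.34) and a fall of Ears2 (-0.27). That of Ears2 was lost when any WT library or KO replicate 3 was left out, and with the replicate block.

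Of 18 tested genes for the upkeep and transcription of mitochondrial DNA and its nuclear regulators, 4 were higher (22.2%, near the 24.5% of all genes tested) and 2 lower (11.1%, against 18.8%). Myc, a transcription factor that drives ribosome production, had 2.37, 2.78 and 3.92 FPKM in the WT group and 0.581, 0.759 and 0.819 FPKM in the KO group, a fall of 1.21 on the log2(FPKM + 1) scale (SE 0.15, limma adjusted p = 0.00106). With a pseudocount of 0.1 the fall was 1.91, since a pseudocount of 1 is large beside these levels. Polg, the mitochondrial DNA polymerase, rose by 0.36 (limma adjusted p = 0.00799), and Ssbp1, which binds single-stranded mitochondrial DNA, by 0.24 (0.0196), with Ssbp1 not called without WT replicate 1 (0.058) or KO replicate 3 (0.0618). The other calls, named after their values were seen, were rises of Tfb2m (0.18) and Gabpa (0.094) and a fall of Twnk (-0.13), which was lost with the replicate block. The count of higher genes was 1 or 2 when any library other than KO replicate 1 was left out, and that of lower genes 1 without WT replicate 2, WT replicate 3, KO replicate 1 or KO replicate 3. Tfam, which packages mitochondrial DNA, had 12.7, 12.2 and 10.8 FPKM against 12.1, 12.1 and 12.2 FPKM (0.024). Polrmt, the mitochondrial RNA polymerase (0.18, limma adjusted p = 0.108), and Ppargc1b, a coactivator of mitochondrial genes (0.16, 0.17), were not called, although Polrmt was without KO replicate 1 (0.25, 0.032).

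The transcripts that the mitochondrial ribosome translates were higher throughout. All 13 mitochondrially encoded mRNAs were called higher with KO neutrophils (100%, against 24.5% of all genes tested), with a median log2 difference of 0.58. The differences ran from 0.15 for mt-Co1 to 0.84 for mt-Cytb. The 2 rRNAs that form the core of its subunits went in opposite directions. mt-Rnr1, that of the small subunit, fell from 427.7 ± 6.15 to 327 ± 16.1 FPKM (-0.39, limma adjusted p = 0.000340), and mt-Rnr2, that of the large subunit, rose from 149.8 ± 1.55 to 212 ± 12.2 FPKM (0.50, limma adjusted p = 0.000187; SD, n = 3 each). Per the labels the libraries were made with an mRNA kit, so the levels of these rRNAs depend on how much of them was captured. Of the 78 tested proteins of the cytosolic ribosome, 5 were higher (Rps27l, Rps4x, Rpl37a, Rps21 and Rps28, by 0.072 to 0.20) and 16 lower, with a median of -0.030. The share called lower was 20.5%, near the 18.8% of all genes tested, and the share called higher was 6.41%, against 24.5%. The counts of higher and lower genes were 2 and 35 on the TPM scale, 2 and 9 with no filter, 2 and 6 with no variance trend, 9 and 20 with quantile normalization, 4 and 26 after the length and GC correction and 3 and 10 with the replicate block. Over all genes they were 2175 and 2660 on the TPM scale and 2456 and 2048 (of 25195 tested) with no filter. With no variance trend they were 2762 and 2102, with quantile normalization 2743 and 2150, after the length and GC correction 2862 and 2113 and with the replicate block 2373 and 1839. Without WT replicate 3 or KO replicate 3 the count of higher genes was 3, and without KO replicate 2 that of lower genes was 10. The difference between the cytosolic and the mitochondrial ribosome was not tested.

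**Figure D5:**
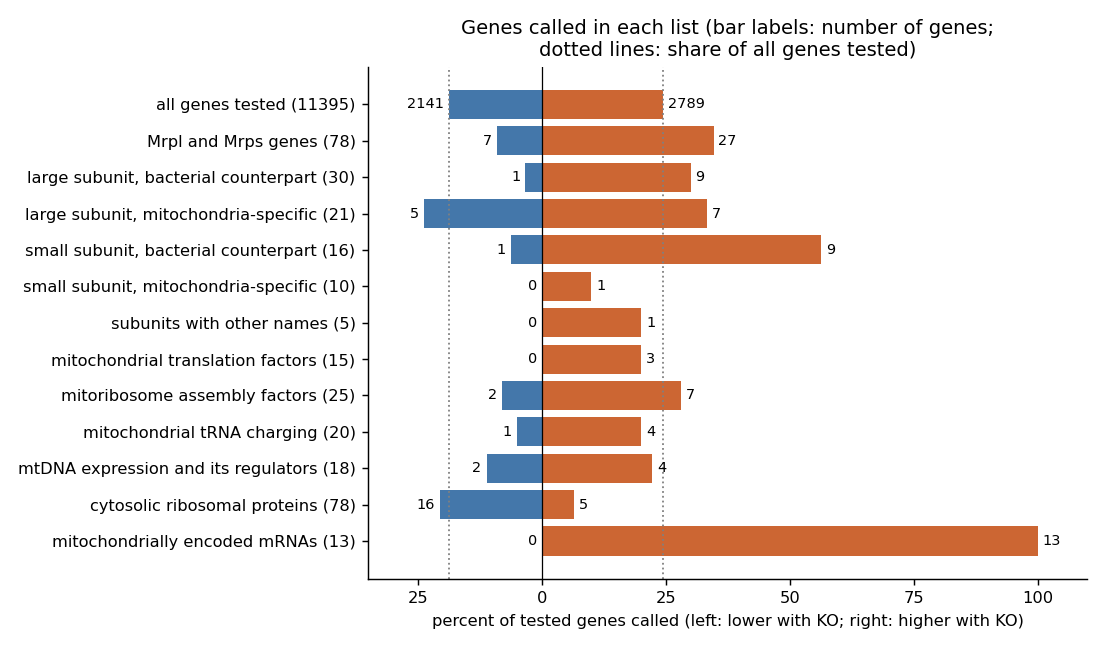
Percent of tested genes called lower (left, blue) and higher (right, orange) with KO neutrophils in each list, with the number tested in brackets, the number called at the end of each bar and dotted lines at the shares of all genes tested (24.5% higher, 18.8% lower). The small subunit genes with a bacterial counterpart (9 of 16 higher) and the mitochondrially encoded mRNAs (13 of 13 higher) reach farthest to the right, and the mitochondria-specific large subunit genes (5 of 21 lower) farthest to the left.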

How the data were processed

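The authors deposited 1 table of FPKM values per library, with 55335 Ensembl identifiers and no pooled columns. The labels name fastp 0.17.1, HISAT2 2.1.0, DESeq2 1.18.1 and R 3.4.3, whereas the quantifier, genome build and annotation are not given in the sources used here. Labels and methods name different kits and sequencers. Symbols, positions and transcripts were taken from GENCODE M21 (GRCm38), in which 181 identifiers were not found, and promoters from RefSeq.

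The test was limma 3.58.1 (R 4.3.3; lmFit, eBayes with trend) on log2(FPKM + 1), KO minus WT, for the 11395 genes that averaged 1 FPKM or more, with Benjamini-Hochberg adjustment and a threshold of 0.05. Such differences understate the change of low genes. The fit was run on simulated libraries with planted differences and independent normal spread. That checks the code and cannot show whether the spread between the real libraries is technical. An exact permutation test of 3 against 3 libraries cannot give a p below 0.1 and was not used. Groups came from the sample titles. Between 31.2% and 33.2% of low values were whole fragments within 0.05 of a fragment (10% by chance), so read counts were not recovered. Depth estimates cover counting error only, and the lowest member and library held about 27.5 fragments.

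Near copies were sought with blastn 2.17.0, on both strands, from the shortest protein-coding transcript of each member. Members and lists were chosen with earlier results of these data known. Named members were the 5 largest called rises and falls, the 3 most abundant of each subunit, the 2 nearest the minimum, and Mrpl10, Mrpl12, Mrpl44, Mrpl45, Mrpl58, Mrps12, Mrps18a, Mrps18b, Mrps18c, Mrps30, Mrps34 and Mrps36. Of the other lists up to 3 genes with the smallest p were named, and Dap3, Ptcd3, Gadd45gip1, Aurkaip1, Chchd1, Tufm, Lrpprc, Tfam, Polrmt, Ppargc1b and Myc. The 17 alternatives changed the pseudocount (0.1), the filter (none, or a mean of 5 FPKM), the scaling (common sum with or without mitochondrially encoded genes, median centring, quantile), the variance model, length and GC, the replicate block and the libraries left out.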

Additional observations from a re-analysis of the deposited data

How the results depend on the processing

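Over the 17 alternatives 20 to 27 members were called higher and 5 to 12 lower, the median difference of the members stayed positive, and 24 members (19 higher, 5 lower) were called in each of the 18 fits that tested them. On the TPM scale 12 members were lower and the median was 0.053, and the length and GC correction gave a median of 0.079. Without 1 library each, 22 to 27 members were higher and 5 to 6 lower, and the median was 0.079 (without WT replicate 1) to 0.1 (without WT replicate 3). The number of genes called was 3763 to 4975. The replicate numbers did not pair the libraries, with correlations of deviations of -0.075, -0.052 and -0.0052. With the replicate block 26 members were higher, 5 lower and 4212 genes called. The calls of Mrps7 (limma adjusted p = 0.0511), Mrpl32 (0.0847), Mrpl38 (0.0601), Mrpl40 (0.0502) and Ptcd3 (0.0512) were lost, and so were those of Ears2 and Twnk. The block left 5 assembly factors higher and 1 lower. It left 3 genes that charge mitochondrial tRNAs higher and 0 lower, and 3 genes for mitochondrial DNA and its regulators higher and 1 lower. Of 789 single-gene values under alternatives, 741 kept sign and call, 28 lost and 5 gained the call. The other 15 changed sign, all in genes not called: on the TPM scale Tfam -0.023 and Gadd45gip1 -0.049, with median centring Gadd45gip1 -0.001, with the length and GC correction Gadd45gip1 -0.014, without WT replicate 3 Tfam -0.037, Gadd45gip1 -0.031, Mrpl44 0.002, Mrpl9 0.02 and Mrps34 0.069, without KO replicate 3 Gadd45gip1 -0.02, without WT replicate 2 Mrps18b 0.013 and Chchd1 0, without KO replicate 1 Mrps18b 0.05 and Mrps12 0.069, and without KO replicate 2 Chchd1 0.025. Over the fits that each left out 1 library these genes ranged from -0.037 to 0.066 (Tfam), -0.064 to 0.05 (Mrps18b), -0.05 to 0.002 (Mrpl44), -0.073 to 0.02 (Mrpl9), -0.031 to 0.023 (Gadd45gip1), -0.215 to 0.069 (Mrps34), -0.159 to 0.069 (Mrps12) and -0.063 to 0.025 (Chchd1). Of the other genes not called, the same fits moved Mrpl23 to between -0.229 and -0.042, Mrpl10 to between -0.087 and -0.017, Dap3 to between -0.099 and -0.033, Aurkaip1 to between 0.03 and 0.094, Mrps35 to between 0.038 and 0.083 and Ppargc1b to between 0.102 and 0.221. The cause of these shifts was not tested. Depth was not given with the table, which limits what can be said of members near 3 FPKM.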
